A study of Homo sapiens with 10 samples.

Results

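Among untreated HAP1 clones, 102 genes were well expressed in at least 1 clone and nearly silent in at least 1 other. Each had 100 or more counts in 1 or more of 8 untreated libraries (the on state) and 5 or fewer in 1 or more (the off state), and values in between are called intermediate. They were chosen from these counts out of 59453 genes, of which 12612 reached 100 counts in any untreated library, so they made up 0.809% of the latter. Before certain symbols were set aside, 115 genes met both limits. The 13 left out were zinc finger genes named ZNF, clustered protocadherins, HOX, collagen, laminin and mitochondrial genes, and 6 single genes. The counts that chose the genes are described and not tested.

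HAP1 cells are human, of leukaemic origin (the KBM-7 line), and carry most chromosomes in a single copy. The libraries came from clones that were wild type (WT), lacked the DNA glycosylase MUTYH (MUTYH KO, clones 7 and 8), lacked OGG1 (OGG1 KO, clones 1 and 22) or lacked both (DKO, clones 4 and 14). The WT clones were 2 and 11, and each also gave a library after 24 hours in 100 µM H2O2. The knockouts were made with CRISPR-Cas9, each library is 1 clone, and a genotype is therefore represented by 2 clones. Both DKO clones were derived from a single OGG1 KO clone. The product number of that parent ends in 22, but the sources do not otherwise tie it to the library of OGG1 KO clone 22. No separate cultures of a clone were labelled, so the spread between libraries of a genotype is the spread between clones. Total counts per library were between 22225091 and 22674964. In the smallest library 5 counts are 0.225 CPM, which is library-size scaled counts, and 100 counts are 4.5 CPM. Counting error alone gives 5 counts an upper 95% Poisson limit of 11.7 and 100 counts a lower limit of 81.4. These Poisson limits cover counting error only, and the Wilson intervals given later treat genes as independent draws.

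A gene that is silent in one clone and active in a sister clone can be kept in either state through many divisions. Promoters rich in CpG dinucleotides can be methylated and then stay inactive, and Polycomb or heterochromatin marks can hold a gene inactive without methylation. In a near-haploid cell most genes have a single copy, so silencing or loss of that copy leaves no second allele. None of these marks, nor DNA copy number, was measured here.

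The promoters below were chosen to show the kinds of pattern the genes fell into. S100A6, a calcium-binding protein, was off in OGG1 KO clone 22 and both DKO clones. THSD7B, a thrombospondin repeat protein, was off in both MUTYH KO clones. TLX3, a homeobox transcription factor, and NLGN4X, a synaptic adhesion protein, were on only in WT clone 2. Each window of 300 bases runs from 250 before to 50 after the start of the canonical transcript in GENCODE v44, on GRCh38. The capitals mark CpG dinucleotides, and the windows are written in the sense of the gene.
S100A6: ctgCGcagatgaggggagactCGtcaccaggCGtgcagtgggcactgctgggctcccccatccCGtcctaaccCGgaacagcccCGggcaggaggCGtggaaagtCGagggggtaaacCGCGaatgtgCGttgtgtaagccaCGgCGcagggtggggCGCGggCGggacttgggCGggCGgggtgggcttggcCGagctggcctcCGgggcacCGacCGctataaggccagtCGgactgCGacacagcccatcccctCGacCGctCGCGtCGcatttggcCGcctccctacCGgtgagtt
THSD7B: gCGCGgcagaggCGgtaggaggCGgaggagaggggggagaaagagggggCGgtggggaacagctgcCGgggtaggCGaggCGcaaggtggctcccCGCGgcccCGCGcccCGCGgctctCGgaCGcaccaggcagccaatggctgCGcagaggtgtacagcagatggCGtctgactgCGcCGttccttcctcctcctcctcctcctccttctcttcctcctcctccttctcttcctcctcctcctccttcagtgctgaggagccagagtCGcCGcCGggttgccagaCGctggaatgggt
TLX3: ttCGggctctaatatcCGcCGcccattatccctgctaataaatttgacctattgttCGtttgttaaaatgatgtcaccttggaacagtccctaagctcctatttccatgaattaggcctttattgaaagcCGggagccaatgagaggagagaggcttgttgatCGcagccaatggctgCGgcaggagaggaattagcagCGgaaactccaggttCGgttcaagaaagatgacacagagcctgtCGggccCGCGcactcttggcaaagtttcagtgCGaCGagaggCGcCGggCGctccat
NLGN4X: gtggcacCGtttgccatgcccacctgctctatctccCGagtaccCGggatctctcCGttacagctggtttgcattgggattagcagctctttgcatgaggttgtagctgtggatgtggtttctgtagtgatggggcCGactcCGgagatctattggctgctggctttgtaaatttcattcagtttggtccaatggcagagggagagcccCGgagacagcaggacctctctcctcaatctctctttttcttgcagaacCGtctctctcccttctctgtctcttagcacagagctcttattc

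The windows were chr1:153535942-153536241 on the minus strand for S100A6 and chr2:136765295-136765594 on the plus strand for THSD7B. They were chr5:171308998-171309297 on the plus strand for TLX3 and chrX:6228818-6229117 on the minus strand for NLGN4X. The S100A6 window held 31 CpG dinucleotides and the THSD7B window 24. The TLX3 window held 17 and the NLGN4X window 8. Genes that were off in some clones thus included some with dense and some with sparse CpG promoters. Whether a clone lost or gained expression cannot be told from these counts.

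The first principal component of genes outside this set did not separate the libraries by genotype, and later components were not examined. It was taken over 11832 genes, held 45% of their variance and put 1 clone of each genotype on each side. WT clone 2, MUTYH KO clone 8, OGG1 KO clone 22 and DKO clone 14 lay on the first side and WT clone 11, MUTYH KO clone 7, OGG1 KO clone 1 and DKO clone 4 on the second. Off calls were spread over both sides, with 112 on the first and 133 on the second, and 26 genes were off only in libraries of the first side and 28 only in libraries of the second. CNTN6, a contactin, was off in all 4 libraries of the first side. Genes off in all 4 of the second side numbered 9, and in no gene was the off state in all 4 of one side and none of the other.

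Of the 816 gene and library combinations, 245 were off, 202 on and 369 intermediate. A gene was off in 1 library for 44 genes, in 2 for 23, in 3 for 14, in 4 for 9 and in 5 or more for 12. The genes were on in 1 library in 56 cases. There were 38 different sets of off libraries, of which 18 held 1 gene, and 38 genes had a library at 0 counts. Because bulk cultures were sequenced, fewer cells expressing a gene and less RNA per cell cannot be told apart for any intermediate value.

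The off state was unevenly spread over clones. It was seen for 50 genes in OGG1 KO clone 1, 45 in MUTYH KO clone 7 and 43 in OGG1 KO clone 22. It was seen for 29 in DKO clone 14, 26 in MUTYH KO clone 8 and 21 in DKO clone 4, and for 17 in WT clone 11 and 14 in WT clone 2. Over all 12612 genes that reached 100 counts somewhere, the number at 5 or fewer ran from 16 in WT clone 2 to 55 in OGG1 KO clone 1. The on state was also uneven, since WT clone 2 had 58 genes on and the other libraries between 18 and 29. WT clone 2 held the highest count of 44 genes and was the only on library for 33.

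**Figure D1:**
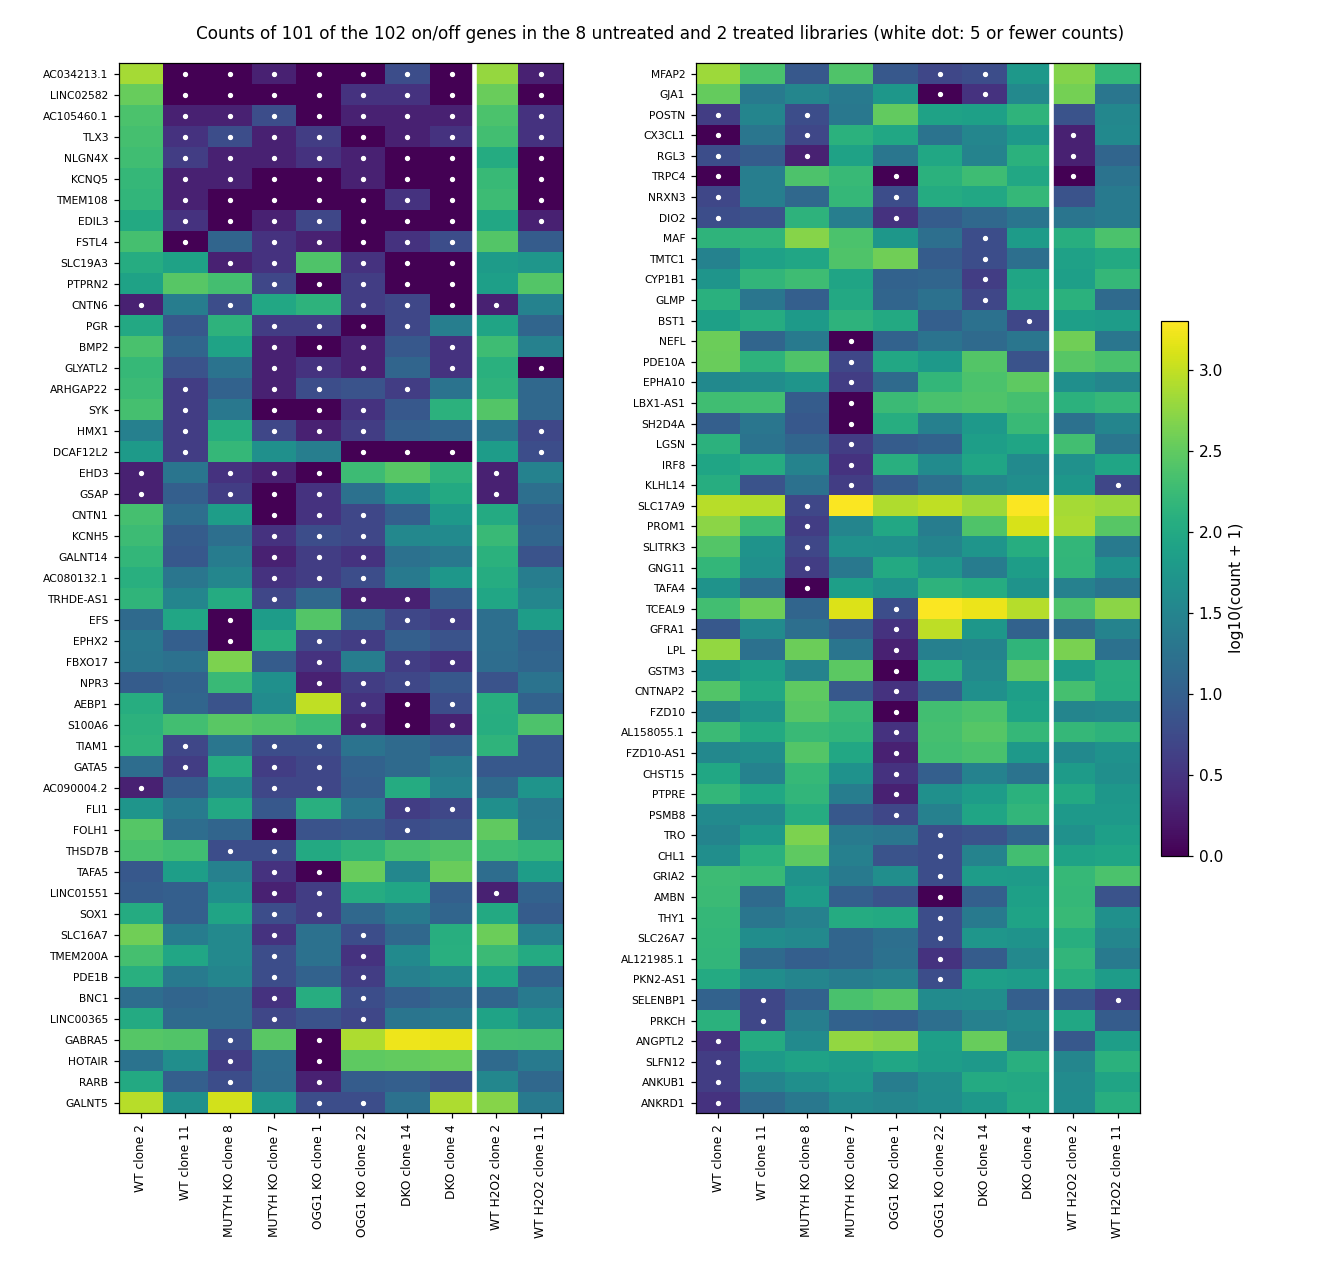
Counts of 101 of the 102 genes (rows) in the 8 untreated libraries and, right of the white line, the 2 H2O2-treated WT libraries (columns), on a log10(count + 1) colour scale. White dots mark 5 or fewer counts, and the top rows show the 8 genes that were on in WT clone 2 alone and off in the other 7 untreated libraries.

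At the limits of the rule, EDIL3 and GSAP (100 counts at most) and RARB (101 counts) just reached the on limit, and BRINP3, TMEFF2 and TRHDE (97 counts each) fell just short of it. TCEAL9, GALNT5 and MAF had 5 counts in their lowest library and were included, whereas CLDN1, TMEM132E and EYA1 had 6 and were not. In all, 11 of the genes lay at the off limit, 8 further genes had a lowest count of 6, and 16 reached 90 to 99 counts.

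A first class of genes was on in a single clone and off in all others. AC034213.1, LINC02582, AC105460.1, TLX3, NLGN4X, KCNQ5, TMEM108 and EDIL3 were on in WT clone 2 and off in the other 7. The non-coding AC034213.1 had 712 (clone 2) and 0 (clone 11) counts in WT, 1 (clone 7) and 0 (clone 8) in MUTYH KO, 0 in both OGG1 KO clones, and 0 (clone 4) and 5 (clone 14) in DKO. TLX3 had 211 (clone 2) and 2 (clone 11) counts in WT, 1 (clone 7) and 5 (clone 8) in MUTYH KO, 3 (clone 1) and 0 (clone 22) in OGG1 KO, and 2 (clone 4) and 1 (clone 14) in DKO. The potassium channel gene KCNQ5 had 158 counts in WT clone 2 and 0 or 1 in each of the others. The 2 WT clones were thus in opposite states for all 8.

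A second class of 44 genes was off in 1 clone and on or intermediate in the rest. In only 2 of the 44 were all the other libraries on. SLC17A9, the vesicular nucleotide transporter, had 871 (clone 2) and 822 (clone 11) counts in WT, 1895 (clone 7) and 4 (clone 8) in MUTYH KO, 804 (clone 1) and 953 (clone 22) in OGG1 KO, and 1935 (clone 4) and 651 (clone 14) in DKO. MUTYH KO clone 8 was thus the only low library, 484-fold below the highest. PROM1, which encodes the membrane glycoprotein CD133, had 3 counts in that clone and 24 to 1276 in the others. It is the same clone in which SLITRK3, GNG11 and TAFA4 were off, so 5 genes had MUTYH KO clone 8 as their sole off library.

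OGG1 KO clone 1 was the sole off library for 12 genes. TCEAL9, of a family related to transcription elongation factor S-II, had 5 counts there, 1931 in OGG1 KO clone 22, 198 (clone 2) and 371 (clone 11) in WT, 1347 (clone 7) and 11 (clone 8) in MUTYH KO, and 860 (clone 4) and 1599 (clone 14) in DKO. GFRA1, a coreceptor for GDNF, had 2 counts in OGG1 KO clone 1 against 926 in OGG1 KO clone 22, and its other libraries held 7 to 54. FZD10, a Wnt receptor, had 0 counts in OGG1 KO clone 1 and 30 to 279 in the others. Also in this set were LPL (lipoprotein lipase), GSTM3 (a glutathione transferase), CNTNAP2, PTPRE, CHST15, PSMB8, AL158055.1 and FZD10-AS1.

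MUTYH KO clone 7 and OGG1 KO clone 22 were each the sole off library for 8 genes. In MUTYH KO clone 7 these were led by NEFL, the neurofilament light chain, with 0 counts there and 10 to 365 elsewhere, and PDE10A, a cyclic nucleotide phosphodiesterase, with 4 counts there and 6 to 349 elsewhere. In OGG1 KO clone 22 they were led by TRO (trophinin), with 5 counts there and 6 to 449 elsewhere, and CHL1, a neural adhesion molecule, with 5 counts there and 6 to 301 elsewhere. In PDE10A, TRO and CHL1 the next lowest library was 1 or 2 counts higher, so which clone counts as the sole off library rests on the limit. DKO clone 14 was the sole off library for MAF, TMTC1, CYP1B1 and GLMP, and WT clone 2 for ANGPTL2, SLFN12, ANKUB1 and ANKRD1. DKO clone 4 was that for BST1 alone and WT clone 11 for SELENBP1 and PRKCH. A shared set of 5 genes was off in MUTYH KO clone 7 and OGG1 KO clone 22 and 4 were off in these and OGG1 KO clone 1, among them CNTN1, KCNH5 and GALNT14.

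Several genes were high in clones of different genotypes and low in the sister clones. LPL, which hydrolyses circulating triglycerides, had 589 counts in WT clone 2, 366 in MUTYH KO clone 8 and 144 in DKO clone 4, and 1 to 30 in the remaining 5 libraries. TAFA5, which encodes a secreted chemokine-like protein, had 345 counts in OGG1 KO clone 22 and 348 in DKO clone 4, 0 in OGG1 KO clone 1 and 2 in MUTYH KO clone 7, and 7 to 70 in the other 4. SELENBP1, a selenium-binding protein, had 223 counts in MUTYH KO clone 7 and 266 in OGG1 KO clone 1, and 4 to 41 in the other 6. In none of these did both clones of a genotype reach the on state.

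The clone with the highest level also varied. MAF, a basic leucine zipper transcription factor, had 495 counts in MUTYH KO clone 8, 233 in clone 7, 139 and 145 in the WT clones and 5 in DKO clone 14, with 15 to 63 in the other 3. TMTC1, of a family of protein O-mannosyltransferases, had 388 counts in OGG1 KO clone 1, 245 in MUTYH KO clone 7 and 5 in DKO clone 14, with 8 to 90 in the other 5. POSTN, the matrix protein periostin, had 325 counts in OGG1 KO clone 1 and 140 in DKO clone 4, 3 in WT clone 2 and 5 in MUTYH KO clone 8, and 20 to 78 in the other 4. The transporter gene SLC16A7 had 383 counts in WT clone 2 and 116 in DKO clone 4, 2 in MUTYH KO clone 7 and 5 in OGG1 KO clone 22, and 12 to 35 in the other 4.

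Few genes had an off state that followed the genotype. Both clones were off for 12 genes in MUTYH KO, 22 in OGG1 KO, 18 in DKO and 0 in WT. In each knockout 1 of these was off in no other clone. The 8 genes on in WT clone 2 and off in the other 7 libraries are in each knockout count. The 33 genes with WT clone 2 as their only on library could not count in WT. The counts are therefore no comparison of genotypes. THSD7B had 5 (clone 7) and 5 (clone 8) counts in MUTYH KO, 227 (clone 2) and 191 (clone 11) in WT, 101 (clone 1) and 137 (clone 22) in OGG1 KO, and 254 (clone 4) and 219 (clone 14) in DKO. It was on in all 6 libraries outside MUTYH KO, the DKO clones that also lack MUTYH included. By the limits used, THSD7B was the only one of the 102 genes with a single state within every genotype, but both its off counts lay on the off limit. The non-coding LBX1-AS1 had 0 (clone 7) and 8 (clone 8) counts in MUTYH KO and 174 to 246 in the 6 other libraries. It was thus intermediate in clone 8, with a count below the upper 95% limit of 11.7 for 5 counts. Only the off limit separated LBX1-AS1 from THSD7B in state.

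The genes off in both clones of OGG1 KO or of DKO, and in no other clone, were less clear cut. GALNT5, an enzyme that starts mucin-type O-glycosylation, had 5 (clone 1) and 5 (clone 22) counts in OGG1 KO. Its DKO libraries held 784 in clone 4 and 16 in clone 14, its WT libraries 873 in clone 2 and 45 in clone 11, and its MUTYH KO libraries 56 in clone 7 and 1187 in clone 8. FLI1, an ETS transcription factor, had 4 (clone 4) and 3 (clone 14) counts in DKO and 7 in MUTYH KO clone 7, and 19 to 121 in the remaining libraries. GRIA2, an AMPA receptor subunit, was the only gene on in both WT clones (182 and 167 counts) and in no other library, with 5 to 65 elsewhere.

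Most genes that were off in both clones of a knockout were also off in clones of another. In OGG1 KO, with 22 such genes, PTPRN2, a secretory vesicle protein, had 0 and 3 counts in clones 1 and 22, and it also had 4 in MUTYH KO clone 7 and 0 in each DKO clone, with 78 to 278 in the remaining libraries. SYK, a tyrosine kinase of immune receptor signalling, had 0 and 2 counts in OGG1 KO clones 1 and 22, 0 in MUTYH KO clone 7 and 3 in WT clone 11, and it was on in WT clone 2 with 214 counts and in DKO clone 4 with 132. The progesterone receptor gene PGR, the growth factor gene BMP2, the contactin gene CNTN1 and the channel gene KCNH5 were likewise off in both OGG1 KO clones and in MUTYH KO clone 7.

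In DKO, with 18 such genes, EFS, a docking protein of SRC signalling, had 3 and 4 counts in clones 4 and 14 and 0 in MUTYH KO clone 8, against 263 in OGG1 KO clone 1 and 11 to 90 in the other 4. FBXO17, an F-box protein, had 2 and 3 counts in DKO clones 4 and 14 and 2 in OGG1 KO clone 1. It was on in MUTYH KO clone 8 alone, with 450 counts, and had 8 to 24 in the other 4. DCAF12L2, on the X chromosome, had 0 counts in both DKO clones and in OGG1 KO clone 22, while WT clone 11 held 3 and the other 4 libraries 25 to 156. In MUTYH KO, with 12 such genes, SLC19A3, EHD3 and GSAP were off in both clones besides THSD7B and the 8 genes on in WT clone 2 and off in the other 7 libraries.

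Of the 102 genes, 33 were off in both clones of at least 1 genotype and 69 in both clones of none. No gene was off in all 6 knockout libraries while not off in either WT clone. Within a genotype, 42 genes were on in one clone and off in the other. These were 14 in WT, 10 in MUTYH KO, 19 in OGG1 KO and 0 in DKO, a gene being able to count in more than 1 genotype. GABRA5, a GABA-A receptor subunit, was such a gene in 2 genotypes, with 285 (clone 7) and 5 (clone 8) counts in MUTYH KO and 0 (clone 1) and 788 (clone 22) in OGG1 KO.

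The DKO clones were alike in state, and they shared states with OGG1 KO clone 22 more than with OGG1 KO clone 1. The 2 DKO clones had 18 genes off in both, which is 85.7% of the 21 off in clone 4 and 62.1% of the 29 off in clone 14, and no gene on in one and off in the other. OGG1 KO clone 22 had 20 off genes in common with DKO clone 14 (46.5% and 69% of their lists) and 17 with DKO clone 4 (39.5% and 81%), with 0 and 5 genes in opposite states. OGG1 KO clone 1 had 14 (28% and 48.3%) and 13 (26% and 61.9%) in common with them, with 16 and 22 in opposite states. Each of these shared off counts includes the 8 genes on in WT clone 2 and off in the other 7 libraries. Those 8 were chosen through WT clone 2 and do not separate the pairs. Over the genes outside this set the order was different for DKO clone 4, whose log counts correlated with those of OGG1 KO clone 1 at Pearson r = 0.98 and with those of OGG1 KO clone 22 at r = 0.958 (12497 genes, which are not independent replicates).

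**Figure D2:**
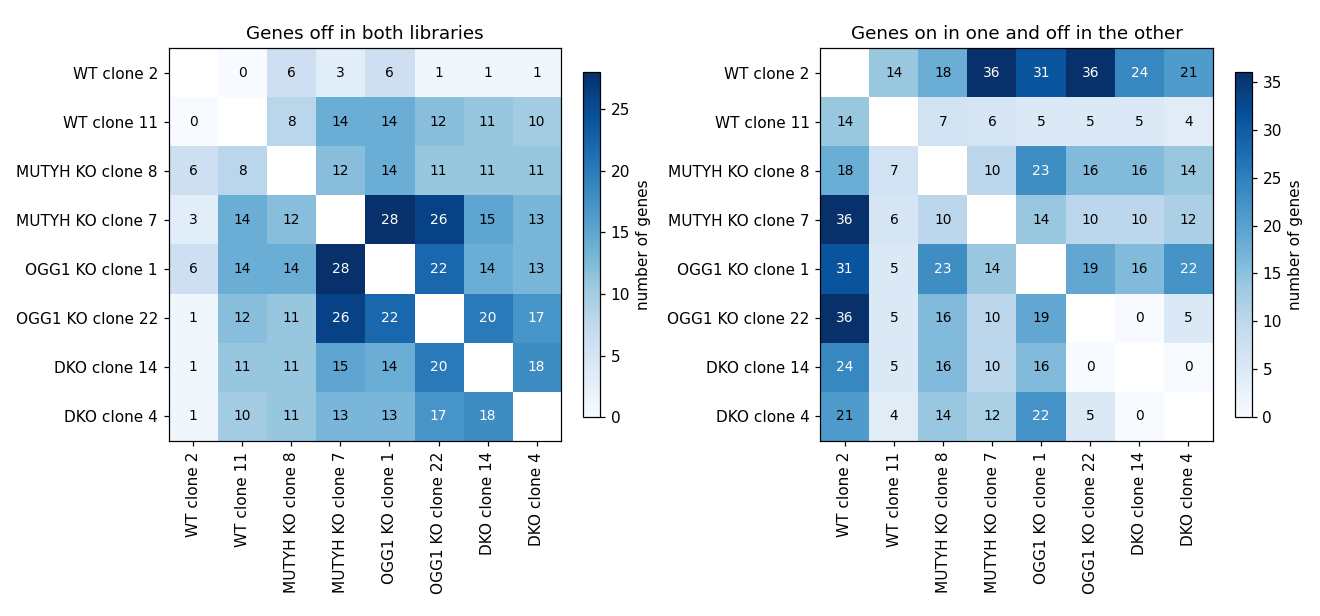
Number of the 102 genes that were off in both libraries (left) and on in one but off in the other (right), for each pair of untreated libraries. OGG1 KO clone 22 and the 2 DKO clones have 0 to 5 genes in opposite states between them. WT clone 11, with 17 genes off and 18 on, has 4 to 7 with the knockout clones, whereas WT clone 2 has 18 to 36.

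OGG1 KO clone 22 and both DKO clones were all off for 15 genes and all on for 9, and 10 of the 15 were off in OGG1 KO clone 1 as well. OGG1 KO clone 1 and both DKO clones were all off for 11 genes and all on for 3. The 15 and the 11 both include the 8 genes on in WT clone 2 and off elsewhere. S100A6 had 1, 1 and 0 counts in OGG1 KO clone 22 and DKO clones 4 and 14, and 187 in OGG1 KO clone 1, 130 (clone 2) and 197 (clone 11) in WT, and 247 (clone 7) and 288 (clone 8) in MUTYH KO. AEBP1, a collagen-binding carboxypeptidase-like protein, had 2, 5 and 0 counts in the same 3 libraries and 952 in OGG1 KO clone 1, with 6 to 112 elsewhere. These were the 2 genes off in those 3 libraries and no other.

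The on state was shared in the same way. EHD3, an ATPase of endocytic recycling, had 181 counts in OGG1 KO clone 22 and 133 (clone 4) and 277 (clone 14) in DKO, but 0 in OGG1 KO clone 1, 1 (clone 2) and 18 (clone 11) in WT, and 1 (clone 7) and 2 (clone 8) in MUTYH KO. HOTAIR, a non-coding RNA of the HOXC cluster, had 299, 340 and 316 counts in the 3 libraries and 0 to 42 in the other 5. EPHA10, an ephrin receptor without kinase activity, had 150, 305 and 229 counts and 3 to 52 in the other 5. TCEAL9, GABRA5, EHD3, HOTAIR and AL158055.1 were on in all 3 of these libraries and off in OGG1 KO clone 1. Both DKO clones came from a single OGG1 KO clone, whose product number ends in 22, but the labels do not tie that parent to a library. The relation of these states to that descent was not tested.

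Outside the DKO clones, likeness did not follow genotype. The pair with the most off genes in common was MUTYH KO clone 7 and OGG1 KO clone 1, with 28 (62.2% and 56% of their lists), followed by MUTYH KO clone 7 and OGG1 KO clone 22 with 26 (57.8% and 60.5%). The 2 clones of OGG1 KO shared 22 (44% and 51.2%), those of MUTYH KO 12 (26.7% and 46.2%) and those of WT 0. The 28, 26, 22 and 12 each include the 8 genes on in WT clone 2 and off elsewhere, which cannot be off in both WT clones. WT clone 11 shared 14 of its 17 off genes (82.4%) with MUTYH KO clone 7 and as many with OGG1 KO clone 1. The median number of genes in opposite states was 12 over the 4 pairs of the same genotype, 15 over the 12 pairs of different genotypes on the same side of the principal component and 12 over the 12 pairs on different sides. These pairs share libraries and were not tested.

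In the treated WT libraries, which played no part in choosing the genes, no gene crossed between the on and off states of its clone. Of 31 off calls in the WT clones, 17 were off after H2O2, or 54.8% (95% Wilson interval 37.8 to 70.8), and 14 were intermediate. Of 76 on calls, 63 were on after H2O2, and 13 were intermediate. The genes that left the off state reached 6 to 39 counts. Several stayed close to the limit, such as POSTN (3 to 6) and NRXN3 (4 to 6) in clone 2 and TIAM1 (4 to 7) in clone 11. Changes of that size lie within the counting error of 5 counts, whose upper 95% limit is 11.7.

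The 14 genes in opposite states in the 2 WT clones kept the same order in all 14 cases when treated. TLX3 had 197 and 2 counts in treated clones 2 and 11, AC034213.1 had 606 and 1, and KCNQ5 had 166 and 0. NLGN4X, which had 196 and 3 counts untreated, had 106 and 0. ANGPTL2, a secreted angiopoietin-like protein, was the gene with the reverse order, with 2 and 105 counts untreated and 7 and 69 treated. In each of the 77 genes that differed over 2-fold between the untreated WT clones the sign was the same in treated cells, as it was in 504 of 528 comparison genes (95.5%), which are the 12497 genes with 100 or more counts in some untreated library and over 5 in all. The clone difference correlated between untreated and treated cells at Pearson r = 0.952 over the 102 genes and at 0.707 over the comparison genes, where the points share libraries and the first set was chosen for large differences.

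**Figure D3:**
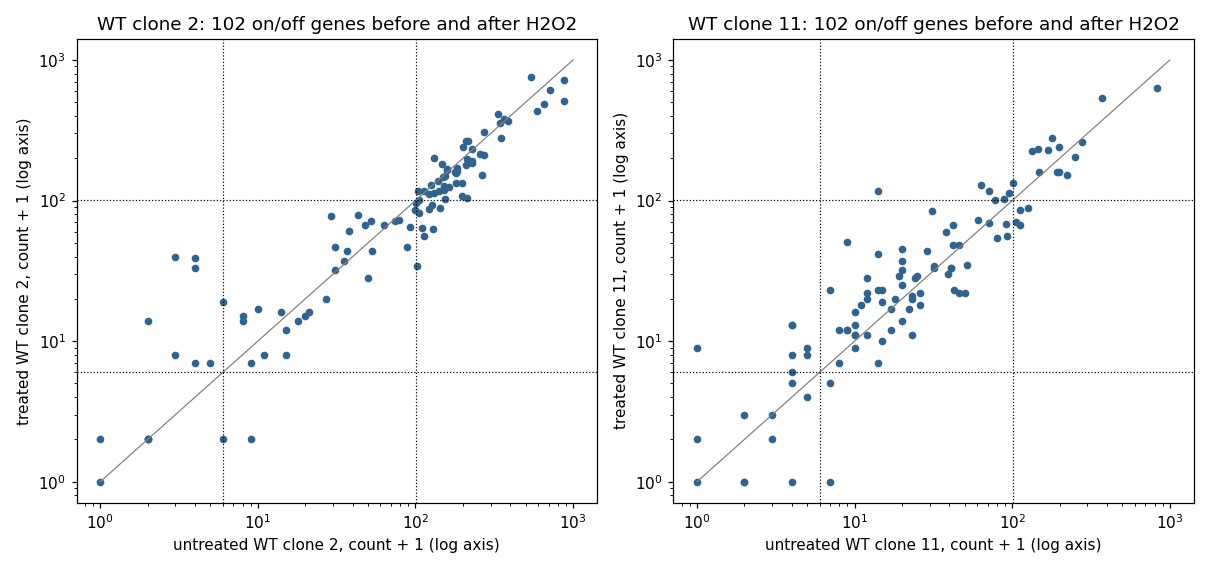
Count + 1 of the 102 genes in the untreated (x axis) and H2O2-treated (y axis) library of WT clone 2 (left) and WT clone 11 (right), both log axes, with the line of equality in grey and dotted lines at 5 and 100 counts. No gene passed from off to on or from on to off, and ANKRD1 rose from 2 to 39 counts in clone 2.

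Few of these genes met the test criterion after treatment, too few for their share to be read against that of all genes tested. By edgeR's quasi-likelihood test, the study's criterion for a changed gene (unadjusted P no higher than 0.05, log2 fold change over 1 either way) was met by 1.75% of the 16997 genes tested. Of the 97 on/off genes tested 3 (3.09%) met this criterion, all upward, and 0 passed Benjamini-Hochberg adjustment. The 3 were ANKRD1, AC090004.2 and DIO2, each off in untreated WT clone 2, a low count through which they could be chosen. There were 3 at an unadjusted edgeR P of at most 0.05, and 0 passed adjustment by DESeq2. With the clone as a block the criterion was met by 2.78% of all genes and by 6 of the on/off genes (6.19%), 5 upward. Adjustment was then passed by 2.57% of all genes and by 4 of the on/off genes. The untreated WT libraries were among those that chose the genes.

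ANKRD1, an ankyrin repeat protein of muscle and a target of YAP, had 2 and 13 counts in untreated and 39 and 116 in treated WT clones 2 and 11. The log2 change came to 3.34 ± 0.89 (SE, n = 2 clones, edgeR adjusted p = 0.638) without the block and 3.40 ± 0.42 (adjusted p = 0.00144) with it. It rose in both clones. AC090004.2 went from 1 and 8 counts to 13 and 50 (2.81 ± 0.53, edgeR adjusted p = 0.0185 with the block) and ANKUB1 from 3 and 30 to 38 and 83 (2.04 ± 0.44, edgeR adjusted p = 0.0305 with the block). SLFN12, a Schlafen family member, had 3 and 62 counts untreated and 32 and 128 treated (1.55 ± 0.41, edgeR adjusted p = 0.0678 with the block), so it did not pass adjustment. In ANKRD1, AC090004.2, ANKUB1 and SLFN12 clone 2 was lower than clone 11 before and after treatment. Untreated WT clone 2 was the only off library of ANKRD1, ANKUB1 and SLFN12, and AC090004.2 was off there too. The rises and p-values of these genes thus start from counts that chose them and are described only. GALNT5 went down in both clones, from 873 and 45 to 507 and 21 counts (-0.84 ± 0.20, edgeR adjusted p = 0.0434 with the block).

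In the genotype fits the on/off genes were called far more often than genes in general, which follows from how they were chosen and is read no further. The same criterion was met by 1.19%, 1.67% and 1.77% of 17881 genes for MUTYH KO, OGG1 KO and DKO against WT. Of the 94 on/off genes tested it was met by 20 (5 up, 15 down), 32 (3 up, 29 down) and 20 (8 up, 12 down). The other 8 failed the expression filter, and they were the 8 genes on in WT clone 2 and off in the other 7 libraries. Without WT clone 2 the calls were 8, 8 and 10. The 3 comparisons share the WT libraries. Of the calls, 1, 0 and 0 passed Benjamini-Hochberg adjustment by edgeR and 3, 0 and 1 by DESeq2, with 20, 33 and 20 at an unadjusted edgeR P of at most 0.05. In the fits with the side of the principal component as a block the calls were 25, 35 and 23.

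Role groups were set by patterns of gene symbols, trimmed after the files were seen. They caught 34 of the 102 genes, so the counts cover what the patterns matched and not all genes of a role. Patterns for channels and transporters matched 10 genes (9.8%) against 2.74% of the comparison genes. They were SLC17A9, GABRA5, SLC16A7 (a monocarboxylate transporter), GJA1 (the gap junction protein connexin 43), SLC19A3 (a thiamine transporter), TRPC4, KCNH5, GRIA2, KCNQ5 and SLC26A7. GJA1 had 331 (clone 2) and 22 (clone 11) counts in WT, 22 (clone 7) and 32 (clone 8) in MUTYH KO, 55 (clone 1) and 0 (clone 22) in OGG1 KO, and 35 (clone 4) and 2 (clone 14) in DKO. SLC19A3 had 245 counts in OGG1 KO clone 1 against 2 in clone 22 and 0 in both DKO clones. TRPC4, a cation channel, had 0 counts in WT clone 2 and OGG1 KO clone 1, and 25 to 236 in the other 6.

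Patterns for cell adhesion and guidance matched 7 genes (6.86% against 0.856%), namely EPHA10, CNTNAP2, SLITRK3, CNTN1, NLGN4X, NRXN3 and CNTN6, most of them known for roles at neuronal surfaces. The adhesion gene CHL1 was outside the patterns. CNTNAP2 had 2 counts in OGG1 KO clone 1 and 9 in clone 22, and 302 in MUTYH KO clone 8 against 7 in clone 7. Patterns for transcription factors matched 6 (5.88% against 1.66%), which were MAF, TLX3, HMX1, GATA5, SOX1 and RARB, and missed FLI1, IRF8, PGR and BNC1, which also encode such factors. SOX1, a neural progenitor factor, had 105 counts in WT clone 2, 84 in MUTYH KO clone 8 and 3 to 21 in the other libraries. GATA5, an endoderm and heart factor, had 111 counts in MUTYH KO clone 8 and 3 to 22 elsewhere.

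Patterns for receptors and ligands matched FZD10, the growth factor BMP2, the natriuretic peptide clearance receptor NPR3 and, by its symbol only, the non-coding FZD10-AS1 (3.92% against 1.56%), and missed GFRA1 and the chemokine gene CX3CL1. BMP2 had 226 counts in WT clone 2, 80 in MUTYH KO clone 8 and 0 to 11 in the other libraries. Those for metabolic enzymes matched GALNT5, GSTM3, CYP1B1 and GALNT14 (3.92% against 1.6%), and those for cytoskeleton and matrix-linked genes MFAP2, NEFL and POSTN (2.94% against 1.66%). MFAP2, a microfibril protein, had 654 (clone 2) and 223 (clone 11) counts in WT, 246 (clone 7) and 7 (clone 8) in MUTYH KO, 7 (clone 1) and 4 (clone 22) in OGG1 KO, and 56 (clone 4) and 5 (clone 14) in DKO. The patterns for germline, imprinted and other zinc finger genes matched none of the 102. They matched 0.392%, 0.248% and 0.672% of the comparison genes, shares too low for the lack of a match to be read as an absence.

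Of the 102 genes, 96 matched GENCODE v44 by symbol, 88 protein coding and 8 long non-coding (8.33% against 2.75% of the comparison genes). Protein coding members had a median span of 62.2 kb against 35.2 kb, and 40.9% against 20.7% spanned 100 kb or more. Another annotated gene overlapped 67 of the 96, and since the strand setting of the counting is not stated, reads of overlapping or antisense genes cannot be told apart. HOTAIR overlaps HOXC11, and THSD7B a 5S rRNA pseudogene.

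The off state seldom reached from one member to a neighbour. There were 9 pairs of members within 1 Mb, and in 2 of them the off call was the same in all 8 libraries. FZD10 (plus strand) and FZD10-AS1 (minus strand) on chromosome 12 lie 203 bases apart and are transcribed away from each other. FZD10-AS1 had 1 count in OGG1 KO clone 1 and 34 to 258 in the others, as FZD10 had 0 and 30 to 279. NRXN3 and DIO2, 329235 bases apart on chromosome 14, were both off in WT clone 2 and OGG1 KO clone 1. At the other pairs the states differed: EHD3 and GALNT14, 78950 bases apart, were in opposite states in 2 libraries, and SLC17A9 and GATA5 in 4.

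The nearest expressed genes on either side, those not overlapping the member and with a mean of at least 100 scaled counts in the libraries where it was on, were mostly at a like level where it was off. The member's own log2 count differed by a median of -5.73 between its off and on libraries, as its selection requires, and the 190 flanking genes by a median of -0.08. The median absolute difference was 0.19 in the flanking genes and 0.19 over all genes expressed in the same on libraries. A fall of over 1 was seen in 9 flanking genes (4.74%) and in 1.7% of all such genes, and a rise of over 1 in 2 (1.05%) and in 0.843%.

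FZD10 and FZD10-AS1 were each other's neighbour and gave 2 of the 9. VCAN, which encodes the matrix proteoglycan versican and lies 358251 bases from EDIL3, differed by -3.10 where EDIL3 was off. BCHE, the butyrylcholinesterase gene 575795 bases from SLITRK3, was at -5.12. KLHL14 had both neighbours lower, GAREM1 at -1.05 and DTNA at -1.23. Others were FERMT1 beside BMP2 (-1.22) and ERMN beside GALNT5 (-1.13). The 2 higher ones were PROM1 beside BST1 (3.98) and FOXF1 beside IRF8 (1.21). The flanking genes named here were chosen after their values were seen. The median distance to a flanking gene was 227 kb, and DNA copy number was not measured.

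**Figure D4:**
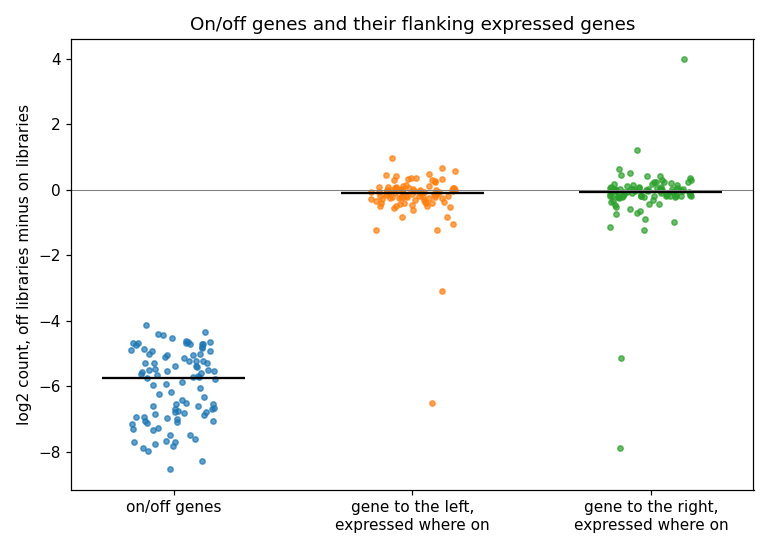
Difference in log2 count (y axis) between libraries in which a gene was off and those in which it was on, for the 96 positioned on/off genes and for the nearest gene to the left and right of each that was expressed where it was on, with black bars at the medians. The on/off genes are centred at -5.73, as their selection requires, and the flanking genes near 0, with 9 below -1 and 2 above 1.

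The promoters were less often CpG-rich than those of other expressed genes. With an observed over expected CpG ratio of at least 0.6 and at least 50% G and C in the window, 57 of 96 were CpG-rich, or 59.4% (95% Wilson interval 49.4 to 68.7). The share was 86.3% of the comparison genes, 84.2% of those whose highest count lay in the same range and 30.8% of the 60334 annotated genes with a window. The median CpG ratio was 0.673 against 0.864, and the median number of CpG dinucleotides was 18 against 28. Among the genes off in 1 library 52.4% were CpG-rich, and among those on in 1 library 49%. S100A6 with a ratio of 0.866 and GFRA1 with 1.06 were CpG-rich, and DIO2 with 0.178, NRXN3 with 0.206 and GALNT5 with 0.299 were not.

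Motifs were searched on both strands of the same windows, and none of the strings contains another. TATAAA was found in 14.6% of the members' windows, 5% of the comparison genes' and 16.5% of all. GGGCGG was found in 55.2%, 75.2% and 30.7%. CCAAT was found in 31.2%, 36.2% and 36.5%, and TGACGTCA in 2.08%, 3.36% and 1.22%. In the windows shown, GGGCGG lies in those of S100A6, THSD7B and TLX3, and CCAAT in those of THSD7B, TLX3 and NLGN4X.

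No gene of the silencing machinery met the criterion in a knockout. Of 36 listed genes for DNA methylation, heterochromatin, Polycomb and their erasers, 35 were tested and 0 met the criterion in any knockout, with 0, 1 and 1 at an unadjusted edgeR P of at most 0.05 in MUTYH KO, OGG1 KO and DKO and no adjusted p under 0.999. The highest library was at most 1.75 times the lowest in CPM. The maintenance methyltransferase gene DNMT1 had 8329 (clone 2) and 8950 (clone 11) counts in WT and 6923 to 9459 in the knockout clones. DNMT3B, a de novo methyltransferase, stood at 1122 and 1039 counts in the WT clones and at 917 to 1321 in the knockouts. MBD2, which binds methylated DNA, had a log2 fold change of -0.48 ± 0.19 (SE, 2 clones against 2, edgeR adjusted p = 0.999) in OGG1 KO, and the H3K4 demethylase gene KDM5B one of 0.46 ± 0.14 (SE, 2 clones against 2, edgeR adjusted p = 1.0) in DKO. DNMT3L was at 0 or 1 count throughout.

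Markers fixed for other cell types were checked in the 8 untreated libraries. Of 10 blood markers 6 stayed at 5 or fewer counts, among them MPO at 0 and PTPRC at 2 or fewer, and the summed level of 69 to 430 counts was mostly KIT with 44 to 418. The 4 epithelial markers summed to 819 to 2274, the 4 mesenchymal ones to 7965 to 16241 and the 3 pluripotency ones to 32242 to 56848, and NANOG was at 2 or fewer. THY1, a mesenchymal marker, is itself one of the 102 genes. The part of these differences in the on and off states was not tested.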

How the data were processed

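RNA was sequenced from 8 untreated and 2 treated HAP1 libraries. The authors aligned reads to GRCh38 with Hisat2 (2.2.1 per the submitters' processing notes, which also name edgeR 3.42.4) and counted them per gene with featureCounts. The deposited values are raw counts. The 2 untreated WT columns of the treatment table were identical copies and were used once. Clones were grouped by their labels, and 1 row of counts was read per gene symbol. The members, the gene lists and the rule for named genes were chosen with earlier results of these data known. Genes were named by highest count, shared off set, genotype, neighbours, role or closeness to the limits.

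Off was 5 or fewer counts, on 100 or more. Tests used edgeR 4.0.16 in R 4.3.3 (TMM, filterByExpr, legacy quasi-likelihood F test), and DESeq2 1.42.0 was an alternative. TMM factors were 0.9702 to 1.021. The treated and untreated WT libraries come from the same clones, so clone number pairs them, and the clone difference correlated at r = 0.707 over 12497 genes. Promoter windows came from hg38. Of the 102 symbols, 68 matched the RefSeq promoter table, too few for the comparison, so 96 windows (94.1%) were taken from GENCODE v44. Log2 counts used a prior count of 1. Some genes and promoter windows are not reported here, though they are kept in the counts.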

Additional observations from a re-analysis of the deposited data

How the results depend on the processing

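The number of genes depended on the limits and on WT clone 2, and the share of CpG-rich promoters was lower than in the comparison genes throughout. The 102 genes became 66 with off at 2 or fewer, 214 with on at 50 or more and 48 with on at 200 or more, and 65 to 100 when 1 library was left out, the lowest without WT clone 2. Genes off in both clones of a genotype (33) became 17, 57, 76 and 17 with off at 2 or fewer, off at 10 or fewer, on at 50 or more and on at 200 or more, and 18 to 33 with 1 library left out (18 without WT clone 2, 18 without OGG1 KO clone 1 and 21 without OGG1 KO clone 22). Genes off in exactly 1 library (44) became 86 and 21 with on at 50 and 200 or more, and 36 to 46 with 1 library left out. Opposite states numbered 5 for OGG1 KO clone 22 and DKO clone 4 and 22 for OGG1 KO clone 1 and DKO clone 4; at the other limits, tried after seeing the data, they were 2 to 21 and 9 to 39, and the second was higher under each limit.

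Calls against WT (20, 32 and 20 for MUTYH KO, OGG1 KO and DKO) became 44, 57 and 41 with no filter, 32 for MUTYH KO with the Wald test of DESeq2 and 36 for DKO with only its 4 libraries. With 1 library left out they were 8 to 42, 8 to 48 and 10 to 38, lowest for MUTYH KO and OGG1 KO without WT clone 2. MUTYH KO gave 42 without WT clone 11 and 32 without MUTYH KO clone 8, and DKO gave 38 without WT clone 11, 10 without WT clone 2, 10 without DKO clone 4 and 11 without DKO clone 14. A minimum of 10 counts in every library left no member to test. The lone library of a genotype is assumed to vary like the others. The treatment calls (3) became 6 with clone number as a replicate block, 0 with a minimum of 10 counts in every library, and 0 to 18 with 1 library left out (18 without untreated WT clone 2, 8 without untreated WT clone 11, 0 without treated WT clone 11). The share off before and after treatment (54.8%) became 75% with off at 2 or fewer. The CpG-rich share became 40.6% at a ratio of at least 0.75, where that of the comparison genes was 72.1%. The 4 genes with a neighbour of the same off set became 2 within 200 kb. The 9 flanking genes lower by over 1 became 3, with 0 higher, when limited to genes with 100 or more counts in every library, a limit that removes neighbours that were off (chosen after seeing the data).

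The causes of these shifts were not tested. In all, 58 values stayed within 1.5 times the main count or its interval and 44 did not. The 95% counting interval of 5 counts reaches 11.7, so single off calls near the limit are not firm.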
